A study of Homo sapiens with 12 samples.

Results

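EIF4E, the factor that binds the cap of mRNAs, averaged lower after cisplatin on these arrays, and it was selected on that difference. The other members are factors that work with it: its relatives EIF4E2 and EIF4E3, the 4E-binding proteins EIF4EBP1 and EIF4EBP2, the scaffolds EIF4G1, EIF4G2 and EIF4G3, and the helicases EIF4A1 and EIF4A2. A gene was taken as measured when a row of the value table was paired with its symbol alone, and 6 of the 10 genes met this, out of 14232 genes measured in the series. They are EIF4E, EIF4E2, EIF4E3, EIF4EBP1, EIF4EBP2 and EIF4G1, each with 1 row. The rows of EIF4G2, EIF4A1 and EIF4A2 are paired with further genes, and EIF4G3 has no entry in the probe table, so these 4 genes were not analysed here.

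A549 cells, an established lung adenocarcinoma line, were profiled on 12 Affymetrix exon arrays. Cells grown in RPMI medium with fetal bovine serum received cisplatin, a platinum drug that crosslinks DNA, for 24 or 48 h at the dose defined as its no-observed-effect level (NOEL), the concentration giving 10% inhibition, or were left untreated for the same times. Each of the 4 groups (cisplatin 24 h, untreated 24 h, cisplatin 48 h and untreated 48 h) has 3 arrays, so that 6 arrays of cisplatin-treated cells were compared with 6 of untreated cells. The study describes 3 independent experiments, and the labels do not tie arrays to experiments. The p-values therefore measure the spread between these arrays.

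The deposited values are log2 signals, normalized across arrays, one per transcript cluster (the probes assigned to one gene). Untreated 24 h replicate 3 stood apart. Its mean correlation with the other arrays was 0.972, against 0.987 to 0.990 for the others, and its values had an SD over genes of 1.79, against 1.93 to 2.06. The study discarded a set of samples from 24 h without naming it, and all 12 arrays were kept here. Of 9 epithelial and A549 markers 7 were measured, with mean signals between 7.24 for EPCAM and 13.59 for the keratin KRT8. Of these 7, 5 had a positive and 2 a negative log2 difference after cisplatin. KRT19, another keratin, at 0.26, was the only one at an unadjusted p under 0.05 (adjusted p = 0.991 from limma), where 1.73% of all genes were higher. Markers of leukocytes, endothelium and fibroblasts, 10 of 10 measured, lay between 3.79 for PTPRC and 8.40 for COL1A1. All 10 had a negative log2 difference after cisplatin, with 0 at an unadjusted p under 0.05 in limma, where 1.60% of all genes were lower. The mean of the 10 per array was 5.77 to 6.10 in cisplatin-treated cells, against 5.84 to 6.43 in untreated cells. The part of either marker list in the values of EIF4E was not tested. CDKN1A, the p21 inhibitor known to respond to cisplatin, averaged 10.93 ± 0.14 in cisplatin-treated cells and 9.80 ± 0.22 in untreated cells (SD, n = 6 each).

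Most mRNAs are translated after the eIF4F complex forms on their methylguanosine cap. In this complex eIF4E holds the cap, eIF4G is the scaffold that recruits the small ribosomal subunit, and eIF4A unwinds structure near the start of the mRNA. The 4E-binding proteins occupy the surface of eIF4E that eIF4G needs, and they let go of it when the mTORC1 kinase phosphorylates them. eIF4E is known as an oncoprotein in lung and other tumours, its gene is a known target of MYC, and MYC binds the E-box CACGTG.

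Of the 5 measured factors whose windows were searched, EIF4E and EIF4G1, partners in eIF4F, had that E-box, and the windows holding it are shown. Each window is the 250 bases before the annotated start, from RefSeq on GRCh38.p14, written 5′ to 3′ along the gene's strand, with CACGTG in capitals. The EIF4E window lies at chr4:98929134-98929383 on the minus strand, and that of EIF4G1 at chr3:184314356-184314605 on the plus strand.
EIF4E: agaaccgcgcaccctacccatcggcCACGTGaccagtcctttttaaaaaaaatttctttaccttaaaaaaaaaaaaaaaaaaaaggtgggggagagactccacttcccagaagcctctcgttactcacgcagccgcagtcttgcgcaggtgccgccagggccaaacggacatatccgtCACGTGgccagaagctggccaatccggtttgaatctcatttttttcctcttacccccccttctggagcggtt
EIF4G1: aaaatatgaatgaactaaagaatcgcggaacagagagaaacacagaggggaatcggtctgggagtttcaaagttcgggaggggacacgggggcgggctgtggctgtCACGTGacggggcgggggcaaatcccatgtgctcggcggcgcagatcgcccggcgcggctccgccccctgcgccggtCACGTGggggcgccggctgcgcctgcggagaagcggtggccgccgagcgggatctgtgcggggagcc
The first base of the motif lay 225 and 72 bases before the start in EIF4E, and 144 and 67 bases before it in EIF4G1. The motif reads the same on both strands. It was found in 6.34% of 35116 such windows in the table, and 0.535% held it at least 2 times. Windows of 5 measured factors were searched, 10 in all, and no window of EIF4EBP1 was searched. The other windows of EIF4G1 and those of EIF4E2, EIF4E3 and EIF4EBP2 did not hold these letters. A match is a description of the sequence and not a site.

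EIF4E was at 6.17, 5.89 and 6.03 on the cisplatin 24 h arrays (replicates 1, 2 and 3), against 6.78, 6.66 and 6.31 on the untreated 24 h arrays, on the log2 scale. At 48 h it was at 5.99, 5.90 and 6.14 in cisplatin-treated cells, against 7.23, 5.86 and 6.75 in untreated cells. All 6 cisplatin arrays thus lay in a band 0.28 wide, while the untreated arrays spanned 1.37. The groups did not overlap at 24 h, where 1.51% of all genes were lower on every cisplatin array than on any untreated one. At 48 h they did, because untreated replicate 2 gave the lowest EIF4E value of all 12 arrays, and untreated replicate 1 the highest. Over both times, 5 of 6 untreated arrays were above every cisplatin array and 1 was below every one of them.

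**Figure D1:**
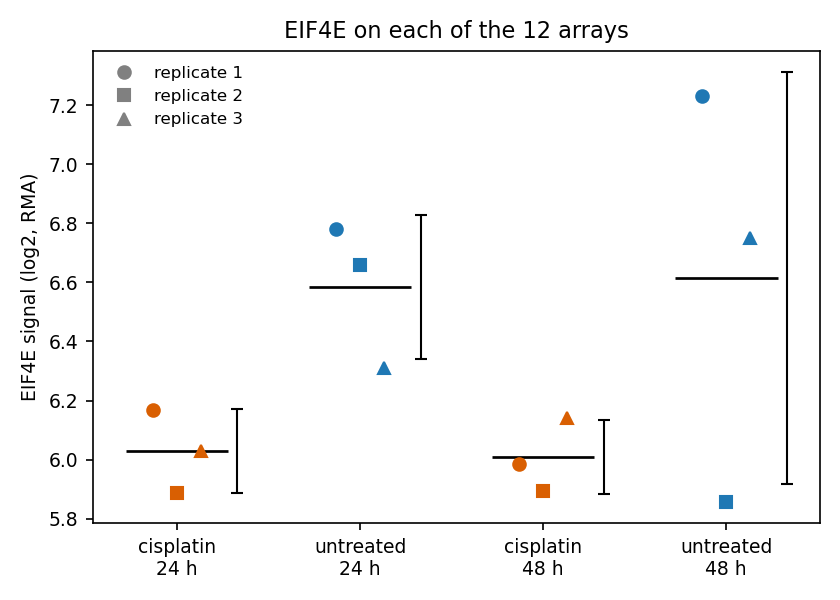
EIF4E signal (log2, y axis) on each array, by group (x axis), with points shaped by replicate number, a line at the group mean and a bar of 1 SD (n = 3). The cisplatin arrays sit between 5.89 and 6.17, and the untreated arrays between 5.86 and 7.23.

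Over both times EIF4E averaged 6.02 ± 0.12 in cisplatin-treated cells and 6.60 ± 0.47 in untreated cells (SD, n = 6 each), a log2 difference of -0.58. The difference was -0.55 at 24 h and -0.61 at 48 h. These values chose the gene, so they are given without a test. At 48 h the difference rested on single arrays, since it was -0.30 without untreated replicate 1 and -0.98 without untreated replicate 2. Without untreated 24 h replicate 3, the array that stood apart, the difference was -0.64 over both times and -0.69 at 24 h.

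The contrast of the times did not choose EIF4E, and it showed no call. Between 24 and 48 h, with treatment in the model, its log2 difference was 0.01 (95% interval -0.36 to 0.37, adjusted p = 0.998 from limma). The effect of cisplatin at 48 h minus that at 24 h was -0.05. This contrast is made of values that chose the gene, so no p and no interval are given. The interval between the times is wide. In the comparison of the times 0.134% of genes passed an adjusted p under 0.05, with 6.13% at an unadjusted p under 0.05, and in that of the effects 0% passed, with 1.15% at an unadjusted p under 0.05.

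The EIF4E row was dim. Its mean over 12 arrays was 6.31, at percentile 18.1 of the signal of all genes, and within the range of 3.79 to 8.40 of the markers of other cell types. No detection call was used here, so the row is not shown to lie above background, and no fold is given. This percentile describes the brightness of a row and does not rank the amounts of different mRNAs, since probes differ in how well they bind. The means of the other rows were 8.49 for EIF4E3, 10.32 for EIF4EBP1, 10.96 for EIF4G1, 11.27 for EIF4E2 and 11.45 for EIF4EBP2. In bulk RNA, fewer cells with the transcript and less of it per cell cannot be told apart.

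EIF4E varied more between untreated replicates than most genes. Its SD between arrays of a group, pooled over the times, was 0.13 in cisplatin-treated cells and 0.52 in untreated cells, at percentiles 57.1 and 98.0 of all genes. The median SD of all genes was also smaller in cisplatin-treated cells, at 0.12 against 0.20 in untreated cells, among which is untreated 24 h replicate 3. The EIF4E SD of untreated arrays was 0.24 at 24 h, where that array belongs, and 0.70 at 48 h (n = 3 each). For EIF4G1 the SD was 0.08 in cisplatin-treated cells and 0.13 in untreated cells, at percentiles 19.0 and 17.7. EIF4EBP2 was as even, at percentiles 15.7 and 10.6. No test of these spreads was made, and they were not ranked among rows of like brightness, though the EIF4E row is dim.

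**Figure D2:**
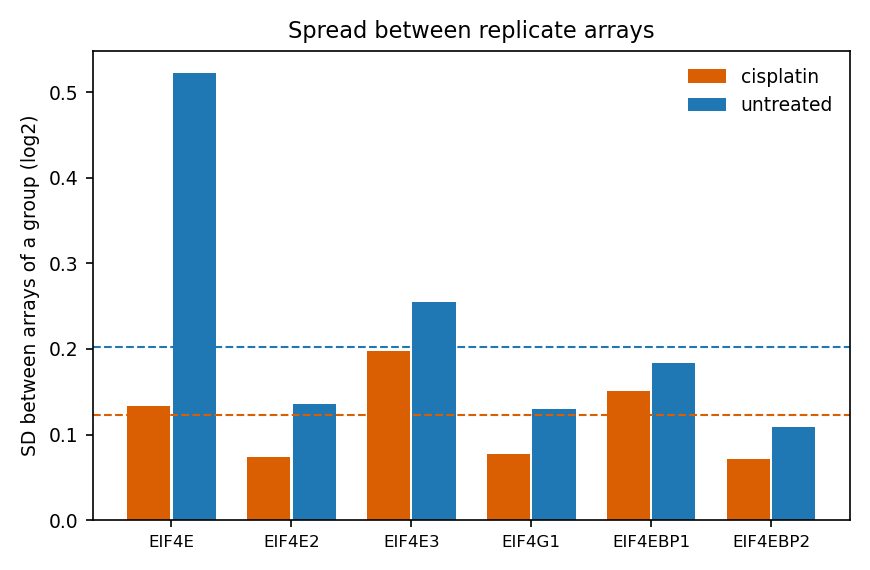
SD between the arrays of a group (log2, y axis), pooled over 24 and 48 h, for each measured factor (x axis) in cisplatin-treated and untreated cells, with dashed lines at the median of all 14232 genes in each condition. EIF4E in untreated cells reaches 0.52, while every other bar is at or under 0.26.

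The relatives of EIF4E did not pass the test. EIF4E2, also known as 4EHP, binds the cap without joining eIF4G and is known as a repressor of translation. It was at 11.26, 11.28 and 11.22 on the cisplatin 24 h arrays, against 11.14, 11.37 and 11.07 on the untreated 24 h arrays. At 48 h it was at 11.19, 11.38 and 11.24 in cisplatin-treated cells, against 11.44, 11.37 and 11.23 in untreated cells. The groups overlapped at both times, and the log2 difference over both was -0.01 (95% interval -0.17 to 0.16, adjusted p = 0.997 from limma). The interval does not reach the -0.58 of EIF4E, and the lowest such bound among the 5 factors other than EIF4E was -0.21. EIF4E was selected on that difference, so no test between the genes is drawn from this.

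EIF4E3, a cap-binding relative that lacks part of the cap pocket of EIF4E, was more scattered. Its values were 8.75, 8.29 and 8.58 on the cisplatin 24 h arrays, against 8.60, 8.40 and 8.08 on the untreated 24 h arrays. At 48 h they were 8.62, 8.31 and 8.53 in cisplatin-treated cells, against 8.86, 8.42 and 8.46 in untreated cells. The highest and the lowest of the 12 were both untreated arrays. The log2 difference over both times was 0.05 (95% interval -0.21 to 0.30, adjusted p = 0.994 from limma), with 0.18 at 24 h and -0.09 at 48 h. These values moved with single arrays. The value over both times was -0.03 without untreated 24 h replicate 3, the value at 24 h was 0.04 without that array and 0.30 without untreated 24 h replicate 1, and the value at 48 h was 0.05 without untreated 48 h replicate 1. A further row, shared with GPR27, was not used.

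EIF4G1, the scaffold, was even across the arrays. It was at 11.00, 11.03 and 10.94 on the cisplatin 24 h arrays, against 10.95, 11.03 and 10.74 on the untreated 24 h arrays. At 48 h it was at 10.85, 11.04 and 10.89 in cisplatin-treated cells, against 11.11, 11.03 and 10.90 in untreated cells. The lowest value was that of untreated 24 h replicate 3. The log2 difference over both times was 0.00 (95% interval -0.17 to 0.17, adjusted p = 0.998 from limma).

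**Figure D3:**
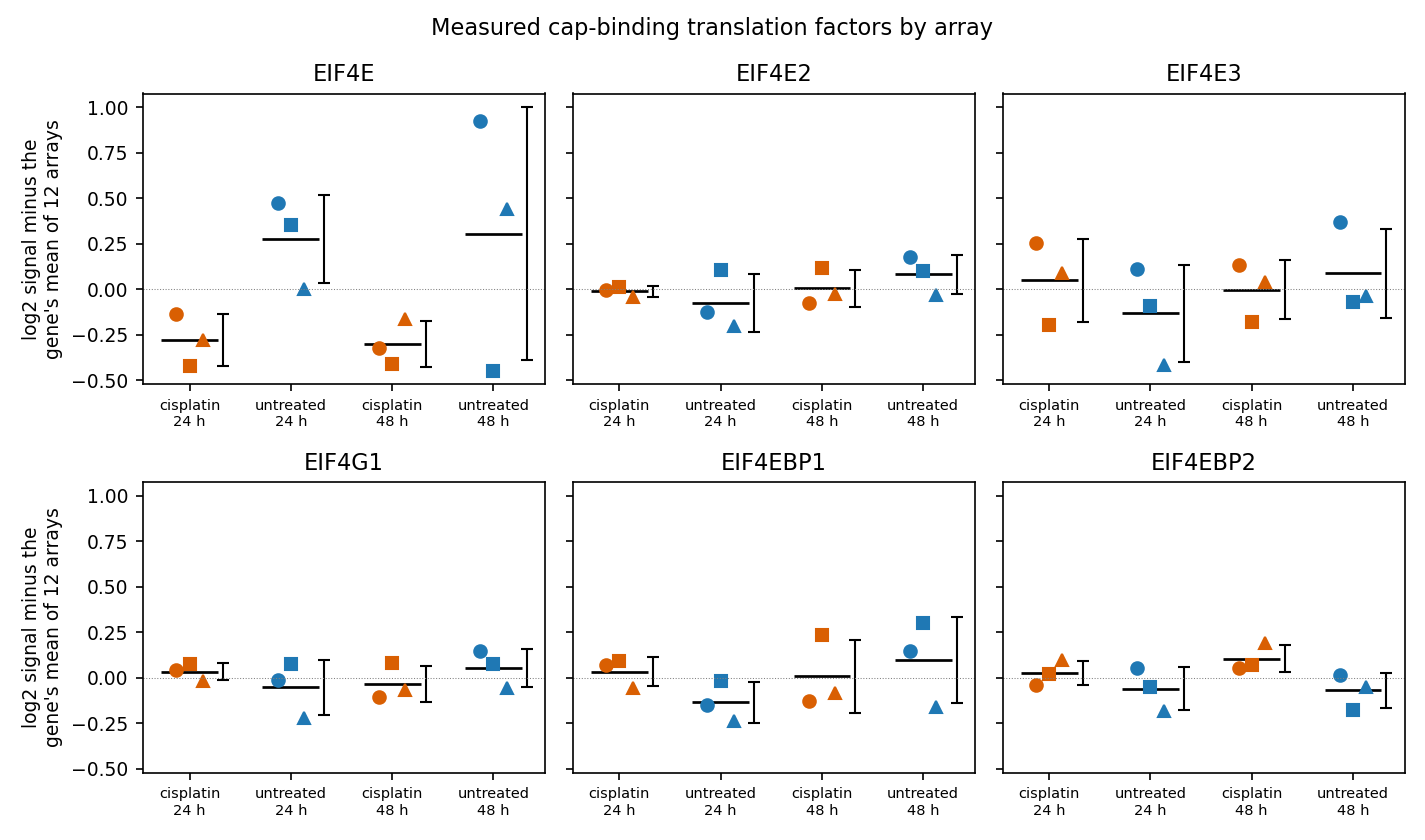
Signal of the 6 measured factors on each array, as log2 signal minus the gene's mean over 12 arrays (y axis, 1 scale for all panels), by group (x axis), with a line at the group mean and a bar of 1 SD (n = 3), and circles, squares and triangles for replicates 1, 2 and 3. EIF4E alone of the 6 spans over 1 on the log2 scale, and the 5 others span 0.78 or less.

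The 4E-binding proteins, the inhibitors of eIF4E, gave small differences. EIF4EBP1 was at 10.39, 10.41 and 10.26 on the cisplatin 24 h arrays, against 10.17, 10.30 and 10.08 on the untreated 24 h arrays. At 48 h it was at 10.19, 10.55 and 10.24 in cisplatin-treated cells, against 10.47, 10.62 and 10.16 in untreated cells. The groups overlapped at both times, with a log2 difference of 0.17 at 24 h and -0.09 at 48 h. Over both times it was 0.04 (95% interval -0.17 to 0.25, adjusted p = 0.994 from limma). The difference between the effects at 48 h and 24 h was -0.26 and did not pass (95% interval -0.68 to 0.16, adjusted p = 1.0 from limma).

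EIF4EBP2, which acts like EIF4EBP1, had the smallest p of the 5 other factors. It was at 11.41, 11.47 and 11.54 on the cisplatin 24 h arrays, against 11.50, 11.40 and 11.26 on the untreated 24 h arrays. At 48 h it was at 11.50, 11.52 and 11.64 in cisplatin-treated cells, against 11.46, 11.27 and 11.40 in untreated cells. The groups overlapped at 24 h and not at 48 h, where 3.58% of all genes were higher on every cisplatin array than on any untreated one. The log2 difference over both times was 0.13 (95% interval -0.02 to 0.28), which did not pass (adjusted p = 0.991 from limma, unadjusted p = 0.0919 across the model of all genes). It was 0.09 at 24 h and 0.17 at 48 h.

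Of the 5 factors other than EIF4E, 0 passed an adjusted p under 0.05 over both times, where 0.0281% of all genes passed, and 0 passed an unadjusted p under 0.05 in limma, where 3.33% did. Their median log2 difference was 0.04, against 0.01 for all genes. At 24 h alone 0.00703% of genes passed an adjusted p under 0.05, with 3.06% at an unadjusted p under 0.05, and at 48 h 0% passed, with 1.15% at an unadjusted p under 0.05. CDKN1A had a log2 difference of 1.23 at 24 h (adjusted p = 0.0158 from limma). Its 1.04 at 48 h did not pass adjustment (adjusted p = 0.0965 from limma). None of the 5 passed either threshold at 24 h or 48 h, or between the times. All 5 had a positive value at 24 h, with a median of 0.09 against 0.03 for all genes, and 4 of them a negative one at 48 h, with a median of -0.09 against -0.02. The values at 24 h leaned on the array that stood apart: without untreated 24 h replicate 3 the 5 ranged from 0.00 to 0.12, with a median of 0.02 against 0.01 for all genes. Without both 24 h arrays numbered 3, an alternative chosen after seeing the data, EIF4EBP2 was at -0.01. The differences between the effects did not pass for any of the 5.

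**Figure D4:**
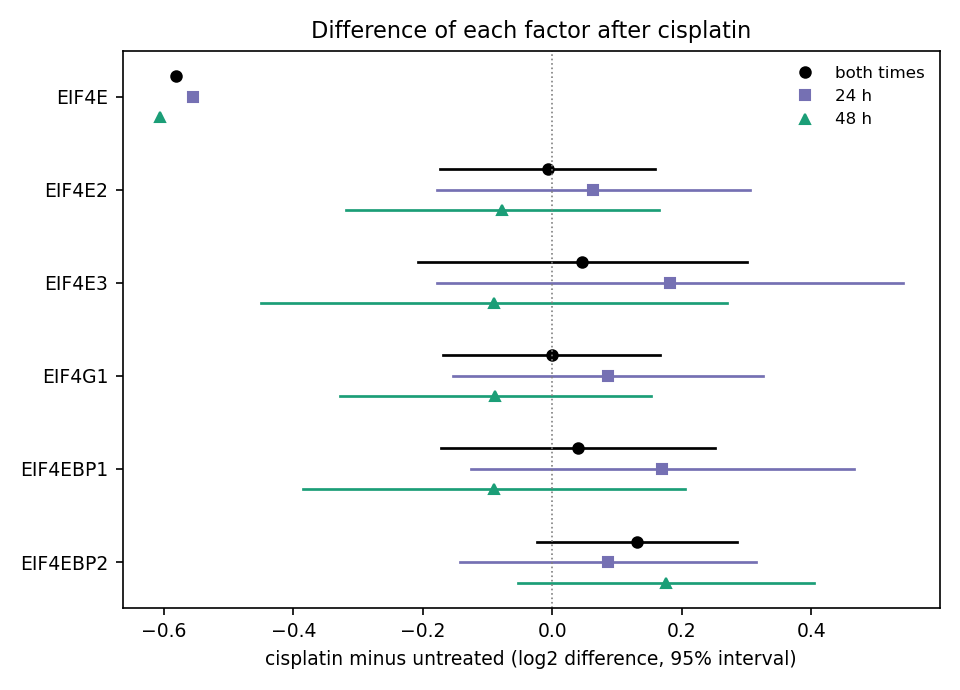
Log2 difference of cisplatin-treated minus untreated cells (x axis) for each measured factor (y axis), over both times, at 24 h and at 48 h, with 95% intervals from limma as lines. EIF4E, chosen for its difference, is drawn without intervals at -0.58, -0.55 and -0.61, and every interval of the other 5 spans 0.

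Among 12 further partners of the complex listed as cofactors, 7 were measured and 0 passed an adjusted p under 0.05 in limma. MKNK2, a kinase that phosphorylates eIF4E, averaged 9.76 ± 0.20 in cisplatin-treated cells and 9.52 ± 0.24 in untreated cells (SD, n = 6 each). Its log2 difference of 0.23 was the only one of the 7 at an unadjusted p under 0.05 (adjusted p = 0.991 from limma), where 1.73% of all genes were higher at that threshold. PDCD4, an inhibitor of eIF4A, had a log2 difference of 0.24 (95% interval -0.05 to 0.52), and PAIP1, which binds the poly(A)-binding protein, had -0.08. The list's median was 0.02, against 0.01 for all genes.

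Proteins that bind the cap, eIF4E or its relatives gave 11 measured genes of 13, and 0 passed an adjusted p under 0.05. CYFIP2 stood out with a log2 difference of 0.76 (95% interval 0.43 to 1.08, adjusted p = 0.131 from limma), averaging 10.99 ± 0.12 in cisplatin-treated cells and 10.24 ± 0.40 in untreated cells (SD, n = 6 each), and every cisplatin array was above every untreated one, as for 0.218% of all genes. It is a paralogue of CYFIP1, which links eIF4E to the repressor FMRP, and both are subunits of the WAVE actin complex. The study picked CYFIP2 from these same arrays, so its value is not independent evidence. CYFIP1 itself had 0.08 (95% interval -0.09 to 0.24) and ANGEL1, which also binds eIF4E, had 0.10. The list's median was 0.04.

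The other initiation factors did not pass the test. Of 31 initiation factors outside the cap complex, 24 were measured, and 16 had positive and 8 negative values with a median of 0.03. None reached an unadjusted p under 0.05 in limma, where 3.33% of all genes did. EIF2S2, the beta subunit of the factor that brings the initiator tRNA, had the largest difference of the list, at -0.62 (95% interval -1.39 to 0.16, adjusted p = 0.991 from limma), in a dim row that averaged 4.03 ± 0.90 in cisplatin-treated cells and 4.64 ± 0.64 in untreated cells (SD, n = 6 each). EIF2D, which delivers tRNA without GTP, had 0.14, and EIF3G, a subunit of eIF3, had 0.11. Among 8 measured elongation and termination factors of 13 the median was 0.02, and the 3 with the smallest p were the release factors GSPT1 and GSPT2, at 0.09 each, and EIF5A, which helps ribosomes through stretches of proline, at 0.08.

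The mTORC1 pathway, which controls the 4E-binding proteins, gave 19 measured genes of 22, of which 15 had positive and 4 negative values with a median of 0.05. None of the 19 reached an unadjusted p under 0.05 in limma, where 3.33% of all genes did. TSC2, which switches RHEB off, had 0.10, DDIT4, an inducible inhibitor of mTORC1, had 0.13, and AKT1S1, the PRAS40 inhibitor of mTORC1, also had 0.10. mRNAs described as sensitive to the amount of eIF4E gave 12 measured of 15, with a median of 0.04. BCL2L1, which encodes the survival protein BCL-xL, averaged 11.90 ± 0.07 in cisplatin-treated cells and 11.74 ± 0.11 in untreated cells (SD, n = 6 each). Its log2 difference of 0.16 was the only one of the 12 at an unadjusted p under 0.05 (adjusted p = 0.991 from limma), where 1.73% of all genes were higher. CCNE1, cyclin E1, had 0.15 and CCND1, cyclin D1, had 0.06. The list holds MYC too, at a log2 difference of -0.06 (95% interval -0.20 to 0.08). These values are levels of mRNA, and translation was not measured.

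Over these lists, 81 genes were measured of 106, of which 0 passed an adjusted p under 0.05 while at an unadjusted p under 0.05 in limma 3 were higher, beside 1.73% of all genes, and 0 were lower, beside 1.60%. Of the 81, 79 lay within 0.25 of 0 on the log2 scale, and CYFIP2 and EIF2S2 did not. The share of all genes within 0.25 of 0 was not computed, so this count does not set the lists apart from other genes.

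**Figure D5:**
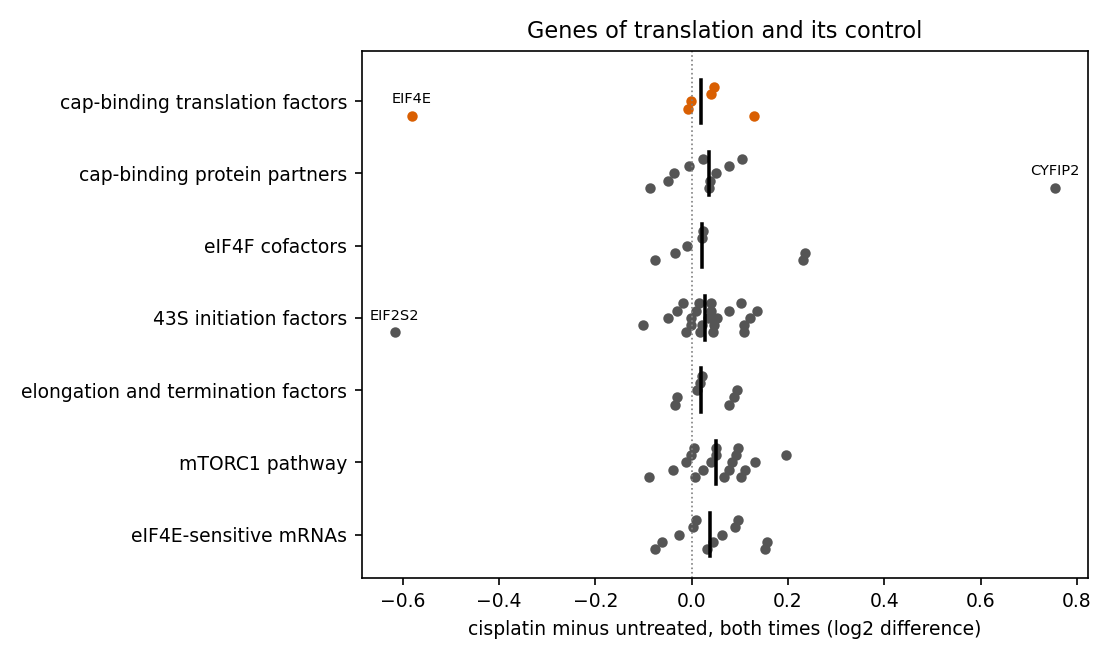
Log2 difference of cisplatin-treated minus untreated cells over both times (x axis) for each measured gene, by list (y axis), with a bar at the list's median and names for genes beyond 0.5. EIF4E lies at -0.58 beside 5 factors between -0.01 and 0.13, and 79 of the 81 genes in the other lists lie within 0.25 of 0. The share of all genes in that band was not computed.

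The genes with the array pattern most like that of EIF4E were sought by Pearson's r over the 12 arrays, as a description. They were PPP2R3A (r = 0.79), a regulatory subunit of a protein phosphatase, CANX (0.78), a chaperone of the endoplasmic reticulum, CETN3 (0.76), a centrin, SSH2 (0.75), a cofilin phosphatase, and METTL18 (0.75), a histidine methyltransferase. The most opposite were SLC4A11 (-0.91), a membrane transporter, ZNF219 (-0.90), a zinc finger gene, and TRAF4 (-0.86), a signalling adaptor. The 12 points share the treatment difference that chose EIF4E, and they are single arrays. With the 4 group means removed, r was 0.78 for SSH2 to 0.96 for METTL18 among the 5 most like, and -0.84 for TRAF4 to -0.89 for SLC4A11 among the 3 most opposite. In that form 626 of 14231 genes lay above 0.8 and 483 below -0.8.

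The other measured factors lay closer to 0 over the 12 arrays. With EIF4E, r was 0.41 for EIF4E3, 0.16 for EIF4G1, 0.13 for EIF4E2, -0.06 for EIF4EBP2 and -0.27 for EIF4EBP1. With group means removed, EIF4EBP2 and EIF4E3 reached 0.71 each, EIF4G1 0.22, EIF4E2 0.14 and EIF4EBP1 -0.31. Of 14231 genes, 626 lay above 0.8 in that form, past EIF4EBP2 and EIF4E3. EIF4E itself deviated most from its group mean on untreated 48 h replicates 1 and 2, by 0.62 and -0.76. These arrays weigh most in r.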

How the data were processed

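Total RNA of A549 cells was hybridized to Affymetrix Human Exon ST arrays, and the authors used Expression Console and Power Tools for RMA normalization, which gave the deposited log2 values per transcript cluster. They run from 2.14 to 14.31, with array medians from 8.07 to 8.19. Versions and genome build are not given in the sources used here. RMA evens out probe signals between arrays, so a shift shared by most genes can be lost. Arrays give no counts, and their number limits the precision.

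Of 22011 rows, 14432 are paired with 1 symbol in GEO's platform annotation, 2408 with several, and 5171 are not in that table. Rows with several symbols were not used. Symbols were updated through RefSeq gene IDs, and the brightest row per gene was kept, giving 14232 genes. R 4.3.3 and limma 3.58.1 fitted treatment and time, and a fit of 4 groups gave the effects at 24 h, at 48 h and their difference, with Benjamini-Hochberg adjustment over all genes. Intervals are 95%. The procedure was run on simulated data whose noise was independent between genes and arrays. That run checked the code, and the detection of changes of a given size in these arrays was not assessed. Named genes are the members, up to 3 genes per list with the smallest p (marker lists aside), the 5 most like and 3 most unlike EIF4E over the arrays, and CDKN1A. MYC and the markers KRT8, KRT19, EPCAM, PTPRC and COL1A1 fall outside this rule and were chosen after their values were seen. Cisplatin and untreated arrays of the same number deviated together in 3 of 3 pairs at 48 h (r = 0.17 to 0.60) and in 1 of 3 at 24 h (-0.39 to 0.21), so the number was tried as a block. The members and lists were chosen with earlier results of these data known. The study's siRNA screen, RT-qPCR and colony assays were not analysed here.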

Additional observations from a re-analysis of the deposited data

How the results depend on the processing

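The log2 difference of EIF4E between cisplatin-treated and untreated cells was negative under every alternative that gave it a value. EIF4E was selected on this fall in the same arrays, so the kept sign is a description and no independent support. Leaving out 1 array at a time gave -0.75 to -0.44 over both times, -0.69 to -0.46 at 24 h and -0.98 to -0.30 at 48 h. Between the times, where the EIF4E difference was 0.01, its sign turned in places. With array weights the cisplatin difference of EIF4E at 24 h was -0.69, and it was also -0.69 without both 24 h arrays numbered 3, an alternative chosen after seeing the data. For the other 5 factors, 410 values were recomputed under the alternatives and 0 passed an adjusted p under 0.05 in limma, with a lowest adjusted p of 0.220. Near 0 their signs turned in places. EIF4E fell outside the genes above the median level, and it has no other row to use in place of its own.

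Counts over all genes moved more. Over both times 4 genes passed an adjusted p under 0.05 in limma, against 10 with quantile normalization, 13 with no time term, 14 with an intensity trend and robust variances, 17 among genes above the median level, 55 with array weights, and 3 to 18 with 1 array left out (18 without untreated 48 h replicate 1). At 24 h the count was 1, against 2 with array weights, the trend or the brighter genes, and 0 to 3 with 1 array left out. At 48 h it was 0, against 1 with quantile normalization, the trend or the brighter genes, 31 with array weights, and 0 to 1 with 1 array left out. For the difference between the effects it was 0, against 0 to 1 with 1 array left out. Between the times it was 19, against 11 with median centring, 30 with the trend, 312 with array weights, and 9 to 25 with 1 array left out. Without both 24 h arrays numbered 3 the counts were 2 over both times, 0 at 24 h, 1 at 48 h and 11 between the times. The cause was not tested. Array weights were taken from the model of treatment and time, a choice made after seeing the data, since their estimation in the fit of 4 groups did not converge and gave calls that were not used.

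Over the 4 groups the replicate numbers did not pair all arrays: of 18 pairs with the same number, the deviations from the group means correlated over 0.1 in 10, from -0.39 to 0.64. At 48 h all 3 pairs of a cisplatin and an untreated array did. With the number as a replicate block, 17 genes passed over both times and 87 between the times, and 0 of the 5 other factors passed in any contrast. In the 6 arrays of 48 h alone with the number as a replicate block, an alternative chosen after seeing the data, limma called 0 genes after adjustment. Of all 14232 genes, 714 had an unadjusted p under 0.05 in that fit, with 0 of the 5 factors among them.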
